A study of Homo sapiens with 40 samples.

Results

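CTCF peaks that were present in control A549 cells and absent from SETDB1 knockout cells are described here. A549 is an established human lung adenocarcinoma line carrying a K-RAS mutation. The control (CT) cells and the cells in which SETDB1 was disrupted with CRISPR/Cas9 (KO) were both A549; whether the knockout cells are 1 clone is not given in the sources used here. The members were chosen by the deposited CTCF peak positions of both genotypes: a control CTCF peak was counted as lost where no knockout CTCF peak shared at least 1 bp with it. On chromosomes 1 to 22 and X, 10544 of 23875 control peaks (44.2%, 95% Wilson interval 43.5 to 44.8) met this rule and 13331 were kept. The knockout list held 34419 peaks on the same chromosomes, of which 21122 overlapped no control peak and are called knockout-only. A further 28 control peaks on other sequences were not used. All positions are on hg19.

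Among the 40 samples of the series, each genotype has 3 RNA-seq libraries, 2 Hi-C libraries, and 2 ChIP-seq libraries each for CTCF and 4 histone marks, with inputs. Each mark has 1 deposited peak list per genotype, with positions and no score, so the read depth behind it is unknown, and each genotype has 1 list of topologically associating domains (TADs). A lost peak is therefore one absent from a list, which is not a measured drop in signal. Shares from these lists have no replicate error, and their intervals are 95% Wilson binomial intervals (Newcombe intervals for differences) that cover counting error only.

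CTCF is a zinc finger protein that binds DNA and stops the extrusion of chromatin loops by the ring-shaped cohesin complex, which places many TAD borders at CTCF sites. SETDB1 is a methyltransferase that adds H3K9me3, a histone mark of repressed chromatin. Hi-C divides the genome into A compartments, which hold most active genes, and B compartments, which hold mostly silent chromatin.

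The targeted gene was examined first. SETDB1 RNA was at 37.5, 39.6 and 38.8 CPM (counts scaled to library size) in the control libraries and at 23.4, 21.2 and 21.1 CPM in the knockout libraries. All 3 knockout libraries lay below all 3 control libraries, with a log2 fold change of -0.82 (SE 0.060, adjusted p = 1.7e-12, edgeR's quasi-likelihood test with Benjamini-Hochberg adjustment). In RNA from a bulk population, fewer cells with the transcript and less transcript per cell cannot be told apart. CTCF itself was at 89.5, 86.6 and 85.0 CPM in control and 95.8, 96.8 and 94.4 CPM in knockout libraries. It was higher in the knockout by 0.14 on the log2 scale (SE 0.045, edgeR adjusted p = 0.0087), with no overlap between the genotypes. Without control replicate 3 the CTCF difference was 0.12 (edgeR adjusted p = 0.060). CTCFL, the germline paralog of CTCF, had at most 1 count in any library.

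Of 18 genes for CTCF, its paralog, cohesin, cohesin regulators and factors found at CTCF sites, 17 were tested; 3 were higher and 8 lower in the knockout at an adjusted p under 0.05. Among all 17767 genes tested, 32.8% were called higher and 30.0% lower, and 62.8% in either direction. The list's median log2 fold change was -0.087, beside 0.0038 over all genes. SMC3, a core subunit of cohesin, fell from 168.5 ± 7.84 to 96.1 ± 1.43 CPM (SD, n = 3), by 0.81 on the log2 scale (edgeR adjusted p = 3.7e-15). RAD21, the subunit that closes the cohesin ring, fell from 291.3 ± 5.47 to 242.5 ± 4.33 CPM (SD, n = 3; log2 fold change -0.27, edgeR adjusted p = 1.6e-06). STAG2 and SMC1A, also cohesin subunits, had log2 fold changes of -0.23 and -0.19, and both were among the 8 lower genes. CDCA5, which protects cohesin on replicated DNA, had -0.49, and WAPL, which releases cohesin from DNA, had -0.22. Higher in the knockout beside CTCF were MAZ, a zinc finger protein found at CTCF sites, with 0.48, and MAU2, a partner in cohesin loading, with 0.27.

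The A549 identity of the RNA libraries was checked with marker genes. All 8 epithelial and A549 markers had a mean of at least 1 CPM, while CD3E, PTPRC and HBB, markers of blood cells, had at most 1 count in any library. The 8 were not at like levels in the genotypes. KRT8 (mean 2271 CPM in control, 6594 in knockout), KRT18, KRT19, EPCAM and ALDH1A1 were higher in the knockout. AKR1B10 (4845 and 2642 CPM), AKR1C2 and NQO1 were lower. Of 4 alveolar markers ABCA3 alone reached 1 CPM. Of 5 markers of blood, endothelial and connective tissue cells, 2 reached 1 CPM, and the 5 summed to 3.37 to 3.48 CPM in control and 7.90 to 8.97 CPM in knockout libraries. Of these, CDH5, an endothelial gene, was at 0.29 CPM in control and 4.53 CPM in knockout libraries; the part of such cells in any result was not tested.

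Lost peaks were narrow. Their median width was 228 bp (interquartile range 200 to 273, range 182 to 788), beside 258 bp (217 to 324, up to 1241) for kept peaks. Widths of 200 bp or less made up 25.2% of lost and 13.3% of kept peaks, and widths over 400 bp 3.90% and 11.2%. The share lost was 58.4% in the narrowest quartile of control peaks (182 to 208 bp), 48.3% and 40.8% in the next quartiles and 28.8% in the widest (303 bp or more). Width was read from the same list as the rule, so these values are a description. The narrowest knockout-only peak was 202 bp wide, so the lists also differ in their smallest width.

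**Figure D1:**
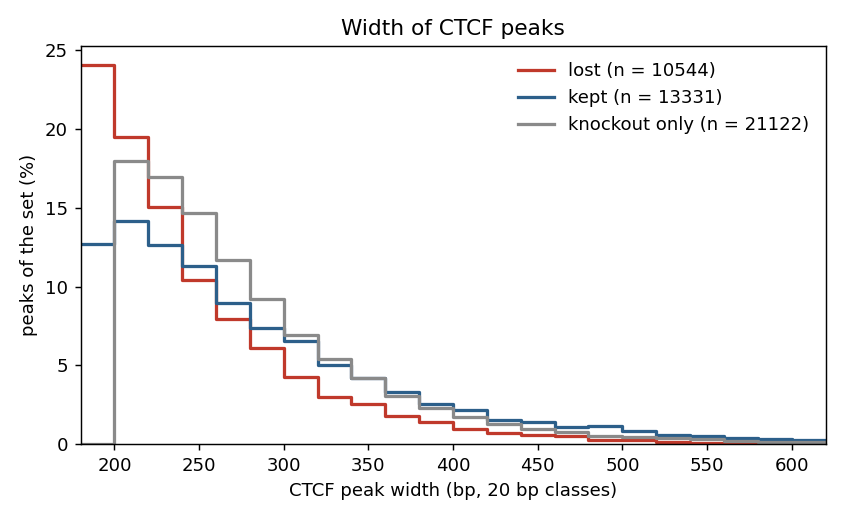
Width of CTCF peaks in 20 bp classes (x axis, bp) against the percentage of each set (y axis) for lost, kept and knockout-only peaks; peaks of 620 bp or more are not drawn. Lost peaks (median 228 bp) lie to the left of kept peaks (median 258 bp), and no knockout-only peak is narrower than 202 bp.

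The gap from a lost peak to the nearest knockout CTCF peak had a median of 27243 bp. Gaps were read from the same lists as the rule, so these values are a description. The gap expected at random positions was not computed, so closeness to knockout peaks was not tested. A knockout peak lay within 1 kb of 303 lost peaks (2.87%), within 10 kb of 24.6% and within 100 kb of 85.9%. At the threshold of the rule, 22 lost peaks had a knockout peak within 100 bp and 56 kept peaks overlapped one by at most 100 bp. The 22 just outside overlap had a median width of 211 bp, with 77.3% in B compartments and 59.1% in knockout H3K9me3. The 56 just inside had a median of 227.5 bp, with 61.8% in B and 41.1% in knockout H3K9me3.

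The widest lost peak was on chromosome 15 (84308134 to 84308921), 788 bp wide, in B in both genotypes (compartment signal -1.15 in control and -1.34 in knockout). It lay in H3K9me3 peaks of both genotypes, of 1119 bp in control and 16163 bp in knockout, and 66889 bp from the nearest knockout CTCF peak. The second with chromosome 8 left out, on chromosome 2 (34753826 to 34754578), was 753 bp wide. It lay in H3K9me3 peaks of 1158 bp in control and 13510 bp in knockout. The third, on chromosome 1 (184632742 to 184633493), was 752 bp wide and had no H3K9me3 in either genotype. It carried H3K4me3, a mark of promoters, in both.

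Lost peaks lay mainly in B compartments. Compartment signal was deposited per 100 kb bin, and bins with a positive value are called A, since H3K27ac peaks, a mark of active promoters and enhancers, covered 6.94% of their length and 0.432% of that of the other bins in control. Of 10422 lost peaks in bins with a signal, 68.5% (67.6 to 69.4) were in B in control, against 19.5% (18.8 to 20.2) of 12961 kept peaks. The difference was 49.0 percentage points (47.8 to 50.1). B in both genotypes held 62.6% of lost and 17.5% of kept peaks, beside 38.9% of all bins. A in both held 27.4% of lost and 74.5% of kept peaks, beside 49.3% of bins. Of 20595 knockout-only peaks in bins with a signal, 53.8% were in A in both and 36.3% in B in both, nearer to the shares of bins. Bins that went from B to A held 5.93% of lost and 2.01% of kept peaks, and bins that went from A to B held 4.08% and 5.95%.

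**Figure D2:**
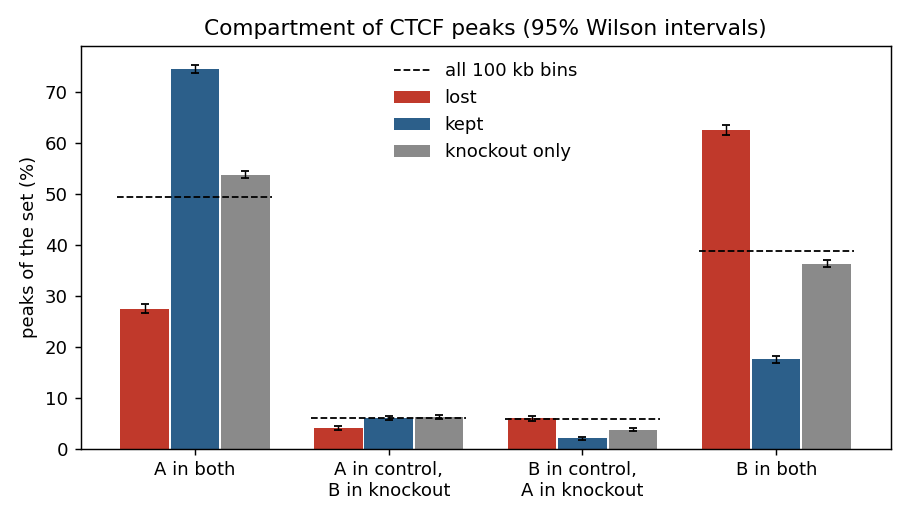
Percentage of lost, kept and knockout-only CTCF peaks (bars, with 95% Wilson intervals) in bins that were A in both genotypes, switched, or were B in both; dashed lines give the share of all 100 kb bins. Lost peaks exceed the bins' share in B in both (62.6% against 38.9%) and kept peaks exceed it in A in both (74.5% against 49.3%).

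Read from the other side, 74.2% (73.3 to 75.1) of the control CTCF peaks in B-in-both bins were lost, against 22.8% (22.1 to 23.6) in A-in-both bins. The share was 70.4% in bins that went from B to A and 35.5% in bins that went from A to B. In switching bins the share was thus nearer to that of bins that kept the same control compartment. Per Mb, B in both held 6.31 lost, 2.197 kept and 7.24 knockout-only peaks, and A in both held 2.19, 7.38 and 8.47. The median signal at lost peaks was -0.55 in control and -0.52 in knockout, and at kept peaks 0.61 and 0.60. The replicate columns gave medians at lost peaks of -0.56 and -0.55 in control and -0.51 and -0.51 in knockout, a spread far below the distance to kept peaks.

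The difference in compartment was also present among peaks of like width. Within each quartile of width, 63.9% to 73.9% of lost and 18.2% to 21.7% of kept peaks were in B.

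Whether the compartment signal itself differed between genotypes in bins with lost peaks was tested with limma over 26496 bins, 2 libraries per genotype. Of 7140 tested bins with a lost peak, 4278 (59.9%) passed an adjusted p of 0.05; the knockout signal was higher in 1597 (22.4%) and lower in 2681 (37.5%). Among all bins 58.8% were called, 21.6% higher and 37.3% lower, so the share in bins with lost peaks was near the background. Bins with a kept and no lost peak were called in 49.3% of cases, and bins with no control CTCF peak in 62.3%. By control compartment, 66.2% of B bins with a lost peak were called, beside 69.7% of all B bins, and 49.9% of A bins with a lost peak, beside 49.99% of all A bins.

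Single bins with lost peaks did change by large amounts. The bin at 200001 to 300000 of chromosome 4, with 1 lost and no kept peak, had signals of -0.82 and -0.80 in the control and 1.28 and 1.16 in the knockout replicates (difference 2.03, SE 0.048, limma adjusted p = 3.3e-09). H3K9me3 peaks covered 86.7% of it in control and 0% in the knockout. The bin at 37300001 to 37400000 of chromosome 19, with 4 lost and no kept peaks, went from -1.58 and -1.66 to 0.16 and 0.20 (limma adjusted p = 3.5e-09), and from 100% to 0% H3K9me3 coverage. In the other direction, the bin at 115300001 to 115400000 of chromosome 12, with 1 lost and no kept peak, went from 0.31 and 0.39 to -1.01 and -1.07 (limma adjusted p = 9.1e-09), and from 19.6% to 100% H3K9me3 coverage. These bins were picked for their size of change and show that lost peaks occurred beside both a full loss and a full gain of H3K9me3. The other bins named by the same rule were one on chromosome 7 (63900001 to 64000000), which went from 91.4% to 0% coverage, one on chromosome 15 (32100001 to 32200000), from 25.2% to 55.8%, and the neighbour of the chromosome 12 bin (115200001 to 115300000), from 7.19% to 100%.

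Lost CTCF peaks overlapped H3K9me3 far more often than kept peaks, in each genotype. Of lost peaks, 26.7% (25.9 to 27.6) overlapped a control H3K9me3 peak and 47.6% (46.6 to 48.5) a knockout H3K9me3 peak. For kept peaks the shares were 4.23% (3.90 to 4.59) and 2.35% (2.10 to 2.62). The differences were 22.5 points (21.6 to 23.4) in control and 45.2 points (44.2 to 46.2) in the knockout. Knockout-only peaks were between these, at 15.9% and 22.3%.

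By class, 4531 lost peaks (43.0%) had H3K9me3 in neither genotype, 3197 (30.3%) in the knockout only, 1817 (17.2%) in both and 999 (9.47%) in control only. Of kept peaks, 94.2% had it in neither. The share of control CTCF peaks lost was 26.5% where H3K9me3 was in neither list and 68.2% where it was in control only. It was 93.7% (92.9 to 94.5) where H3K9me3 was in the knockout only and 94.8% (93.7 to 95.7) where it was in both. These shares pool compartments. Within B-in-both bins they were, in the same order, 42.5%, 73.1%, 93.6% and 94.8%. Within A-in-both bins they were 20.8% for neither and 56.2% for control only, and the other classes held just 19 and 46 peaks. In absolute terms, 313 CTCF peaks under knockout H3K9me3 were kept and 5014 were lost.

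**Figure D3:**
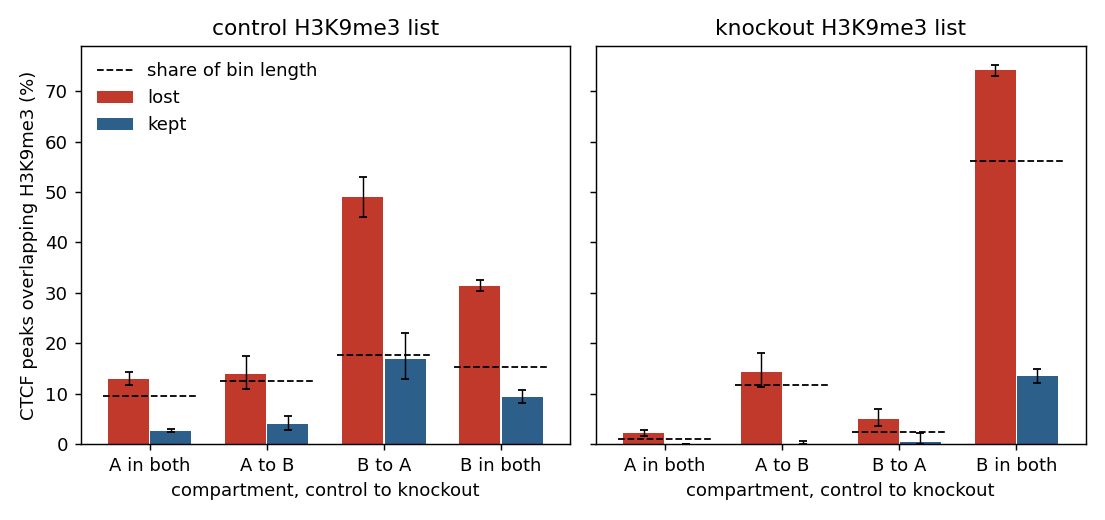
Percentage of lost and kept CTCF peaks that overlap an H3K9me3 peak of the control list (left) or the knockout list (right), by compartment in control and knockout, with 95% Wilson intervals; dashed lines give the share of bin length that the H3K9me3 list covers. In B-in-both bins lost peaks stand at 31.4% and 74.1%, kept peaks at 9.39% and 13.5%.

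H3K9me3 itself covered different shares of each compartment, so the overlap was compared within them. In B-in-both bins, knockout H3K9me3 covered 56.2% of the length; the centres of 73.4% of lost peaks and 12.9% of kept peaks lay in it. Control H3K9me3 covered 15.3% of the same length and held the centres of 29.7% of lost and 8.11% of kept peaks. Lost peaks were thus above, and kept peaks below, the share of length in both lists. Knockout-only peaks in these bins were also above it, with 59.2% of centres in knockout and 23.4% in control H3K9me3. In A-in-both bins, 12.9% of lost peaks overlapped control H3K9me3 and 2.17% knockout H3K9me3, beside 2.67% and 0.0311% of kept peaks. In these bins 86.4% of lost peaks had H3K9me3 in neither list. In bins that went from B to A, 49.0% (45.1 to 53.0) of 618 lost peaks overlapped control and 5.02% knockout H3K9me3. Kept peaks in these bins stood at 16.9% and 0.385%, and H3K9me3 covered 17.6% and 2.51% of the bins' length. Within each width quartile, 42.7% to 52.9% of lost and 2.12% to 2.77% of kept peaks overlapped knockout H3K9me3.

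In the 10 kb window centred on a lost peak, H3K9me3 covered a mean of 21.5% in control and 44.4% in the knockout, and around kept peaks 6.01% and 3.32%. The higher knockout mean came from B-in-both bins, where the window around lost peaks went from 24.95% to 69.45%. It went from 11.3% to 1.92% in A-in-both bins and from 39.1% to 3.298% in bins that went from B to A, and was 12.8% and 12.9% in bins that went from A to B. The H3K9me3 peak that held a lost CTCF peak had a median width of 4866 bp in control and 44112 bp in the knockout. Those that held kept peaks (3799.5 and 34844 bp) and knockout-only peaks (4515 and 42653.5 bp) were wider in the knockout too, so the widening was not particular to lost peaks. Knockout H3K9me3 peaks of 100 kb or more held 1178 lost CTCF peaks (11.2%), 74 kept (0.555%) and 1157 knockout-only ones (5.48%). That is 10.9 lost, 0.685 kept and 10.7 knockout-only peaks per Mb of these domains. CTCF peaks were thus absent from one list and present in the other at like density within the same domains. With chromosome 8 left out, the domain with most lost peaks, on chromosome 17 (49844256 to 50262999), held 12 lost, 1 kept and 12 knockout-only peaks. One on chromosome 2 (51259915 to 51539842) held 11, 1 and 4.

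Examples by class, with chromosome 8 left out, show the scale. Of peaks with H3K9me3 in control only, the widest was on chromosome 19 (22101954 to 22102655), inside a control H3K9me3 peak of 31917 bp and 6144 bp from the nearest knockout CTCF peak. Its bin stayed B, with a signal of -1.30 in control and -0.50 in the knockout. Of those with H3K9me3 in the knockout only, the widest was on chromosome 9 (31220491 to 31221144), inside a knockout H3K9me3 peak of 42961 bp. The next, on chromosome 14 (62460774 to 62461415), overlapped H3K27me3, the mark of Polycomb repression, in control and a 47707 bp H3K9me3 peak in the knockout. Of those with none, the second widest was on chromosome 17 (72004373 to 72005096), with H3K27me3 in both genotypes.

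Active marks were rare at lost peaks. H3K4me3 overlapped 2.06% of lost and 39.5% of kept peaks in control, and H3K27ac 1.74% and 23.5%. Of the 5481 control CTCF peaks with H3K4me3, 3.96% (3.47 to 4.51) were lost. H3K27me3 overlapped 15.5% of lost peaks in control and 11.9% in the knockout, and 4.52% and 5.47% of kept peaks. In B-in-both bins the order differed between the lists, with 17.2% of lost and 15.3% of kept peaks in control and 9.60% and 13.7% in the knockout. In A-in-both bins H3K27me3 overlapped 10.2% of lost peaks in control and 13.3% in the knockout. Where a lost CTCF peak had H3K4me3 in control, the mark was still present in the knockout at 166 of 217 (76.5%, 70.4 to 81.7), against 87.6% (86.7 to 88.5) at kept peaks. For H3K27ac the shares were 59.0% and 79.1%. Control H3K9me3 went the other way and was still present at 64.5% (62.7 to 66.3) of lost and 17.6% (14.6 to 20.9) of kept peaks. These 2 shares pool compartments. In B-in-both bins the mark was still present at 1724 of 2048 lost and 94 of 213 kept peaks. In A-in-both bins the counts were 43 of 370 and 3 of 258.

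Most lost peaks had none of the 4 marks in control (6265, 59.4%). Of these, 2557 (40.8%) overlapped H3K9me3 without H3K27me3 in the knockout and 3325 (53.1%) again had no mark. Of 6574 kept peaks with no mark in control, 161 (2.45%) overlapped H3K9me3 alone in the knockout. Of 1150 lost peaks with H3K27me3 and no H3K9me3 or active mark in control, 422 (36.7%) overlapped H3K9me3 without H3K27me3 in the knockout and 412 (35.8%) still overlapped H3K27me3 alone. Knockout-only peaks of the same control state were alike, with 662 (37.6%) and 628 (35.7%) of 1759, so this change was not particular to lost peaks. For kept peaks the counts were 28 (7.41%) and 203 (53.7%) of 378.

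Lost peaks lay near TAD edges about as often as the genome's length does, and less often than kept peaks. An edge is the start or end of a TAD on a 20 kb grid, and a control edge was called kept where a knockout edge lay within 20 kb. A control edge lay within 20 kb of 8.95% (8.42 to 9.51) of lost and 32.4% (31.6 to 33.2) of kept peaks, beside 9.76% of the genome's length and 18.3% of knockout-only peaks. The difference between lost and kept peaks was -23.4 points (-24.4 to -22.5). In B-in-both bins the shares were 4.88% of lost and 30.0% of kept peaks, beside 5.52% of the length. In A-in-both bins lost peaks stood above the length, at 17.8% against 13.2%, and below kept peaks at 32.6%. The median distance to the nearest control edge was 186 kb for lost and 39.5 kb for kept peaks.

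**Figure D4:**
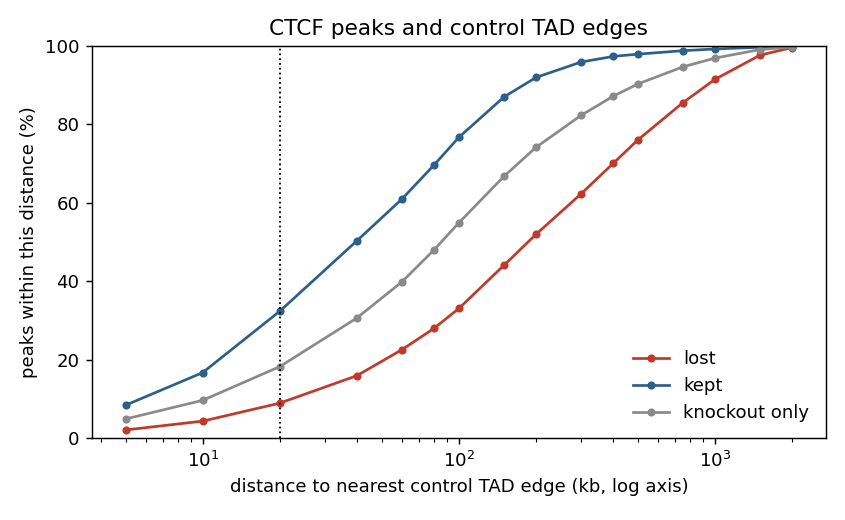
Percentage of lost, kept and knockout-only CTCF peaks (y axis) within a given distance of the nearest control TAD edge (x axis, kb, log axis); the dotted line marks 20 kb. Within 100 kb of an edge lie 33.1% of lost, 54.9% of knockout-only and 76.7% of kept peaks.

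Pooled over compartments, lost peaks were spread about evenly from the ends to the middle of TADs. Each TAD was divided into 5 equal zones from its edges to its middle, and these held 20.8%, 19.1%, 20.3%, 20.6% and 19.2% of lost peaks. Kept peaks fell from 43.9% in the outermost zone to 11.1% in the middle one. The TADs that held lost peaks were long, with a median over lost peaks of 920 kb, against 340 kb over kept peaks. The length-weighted median of control TADs was 560 kb. The zones scale with TAD length, and both zones and lengths pool compartments, which differ in how close edges lie. Within 20 kb of a control edge was 5.52% of the length of B-in-both and 13.2% of that of A-in-both bins. Zones and TAD lengths within compartments were not compared.

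Edges kept and lost were then considered apart. Of 7011 control edges, 6624 were kept and 387 lost. A kept edge lay within 20 kb of 8.40% of lost and 31.4% of kept CTCF peaks, and a lost edge within 20 kb of 0.560% (0.434 to 0.721; 59 peaks) and 1.02% (0.863 to 1.21; 136 peaks), beside 0.530% of the genome's length. Edges found in the knockout only lay near 0.882% of lost and 0.998% of kept CTCF peaks, a difference whose interval (-0.360 to 0.135 points) includes 0. A lost CTCF peak lay near 13.2% (10.2 to 16.9) of lost edges and 12.3% (11.5 to 13.1) of kept edges. A kept CTCF peak lay near 26.6% (22.5 to 31.2) of lost and 43.4% (42.2 to 44.6) of kept edges. Of 195 control CTCF peaks near a lost edge, 30.3% (24.2 to 37.0) were lost, against 17.5% (16.46 to 18.55) of 5069 near a kept edge.

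Most edges beside a lost peak were still called in the knockout. Of 866 control edges with a lost peak within 20 kb, 815 (94.1%, 92.3 to 95.5) were kept, beside 94.5% of all edges. The 866 included 393 edges that also had a kept peak, of which 96.7% were kept. With a lost and no kept peak, 435 of 473 edges (91.97%, 89.2 to 94.1) were kept, beside 93.1% (92.2 to 93.9) of 3560 edges with no control peak. Where lost peaks were the only CTCF peaks of either genotype, 230 of 253 edges (90.9%, 86.7 to 93.9) were kept, a share that overlaps in interval with the 91.4% (90.1 to 92.5) of 2096 edges with no CTCF peak at all. Edges with a kept and no lost peak were kept in 96.5% (95.7 to 97.2) of 2585 cases.

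Named examples, with chromosome 8 left out, show both outcomes. The widest lost peak beside a lost edge, on chromosome 20 (38894772 to 38895214), lay 15.0 kb from an edge at 38880000, and the nearest knockout edge was 460 kb from that edge. It overlapped H3K27me3 in control and lay in a knockout H3K9me3 peak of 170182 bp. The next, on chromosome 12 (24989258 to 24989607), lay 10.6 kb from an edge whose nearest knockout edge was 320 kb away, in a knockout H3K9me3 peak of 160777 bp. The third, on chromosome 1 (66902165 to 66902507), kept H3K4me3 in both genotypes, and the nearest knockout edge was 60 kb from its control edge. The other 2 were both on chromosome 2 (16737528 to 16737869 and 16921470 to 16921808), in knockout H3K9me3 peaks of 38719 and 45894 bp, with control edges 100 and 120 kb from the nearest knockout edge. By contrast, the lost peak on chromosome 2 at 100152904 to 100153360 was the only CTCF peak of either genotype within 20 kb of an edge at 100140000, which was called at the same position in the knockout. So was the peak at 44253287 to 44253750 of chromosome 2 beside an edge at 44240000, which had a knockout edge 20 kb away.

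Lost peaks were uneven over chromosomes. Their density ran from 0.342 per Mb on chromosome 21 to 10.3 per Mb on chromosome 19. Chromosomes 2, 8 and 5 had 7.61, 7.32 and 6.03 lost peaks per Mb and together held 3798 (36.02%) of them. Chromosomes 4, 6, 13, 18, 21, 22 and X had 0.342 to 0.625. The share of control peaks lost ran from 4.76% on chromosome 22 to 63.7% on chromosome 2. The low-density chromosomes other than 22 also had few kept peaks (1.51 to 3.23 per Mb), and few knockout-only peaks (3.11 to 4.50 per Mb). Chromosome copy number in these cells was not examined, and its part in these densities and shares was not tested. The order of lost against kept peaks held chromosome by chromosome. In 23 of 23, lost peaks had a smaller median width and share near a control edge, and larger shares in B and in knockout H3K9me3. Against all bins, the excess of lost peaks in B was absent on chromosomes 13 (46.15% of lost peaks, 47.85% of bins) and X (45.16% and 51.1%). It was small on chromosomes 4 (48.98% and 46.64%), 6 (41.41% and 38.35%) and 18 (50% and 48.56%), which are also of low density. Chromosomes 21 and 22 had only 11 and 13 lost peaks. For control H3K9me3 the order held in 22 of 23, since chromosome 22 had 0 such peaks in either set.

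**Figure D5:**
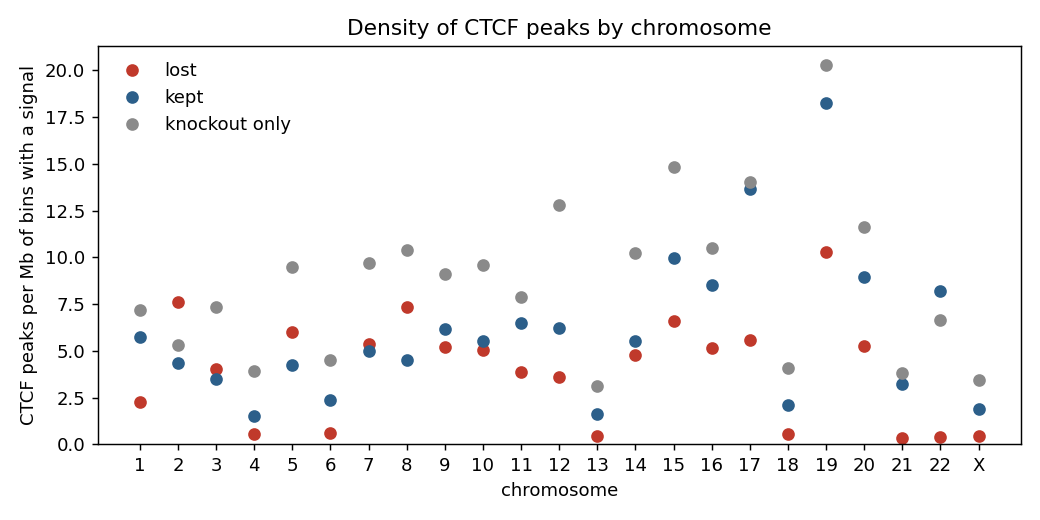
CTCF peaks per Mb of bins with a compartment signal (y axis) on each chromosome (x axis) for lost, kept and knockout-only peaks. Lost peaks exceed kept peaks on chromosomes 2, 3, 5, 7 and 8, and stand below 1 per Mb on chromosomes 4, 6, 13, 18, 21, 22 and X.

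At a finer scale, 2014 of 2468 windows of 1 Mb with a control peak (chromosome 8 left out) had a lost peak, and 294 had lost peaks and no kept peak. The window with most lost peaks, 4000001 to 5000000 of chromosome 2, held 34 lost, 1 kept and 13 knockout-only peaks, and its H3K9me3 coverage was 48.7% in control and 82.7% in the knockout. The window at 28000001 to 29000000 of chromosome 19 held 33 lost, 5 kept and 28 knockout-only peaks, with coverage of 89.3% and 68.9%. The third, 76000001 to 77000000 of chromosome 2, held 29 lost and 2 kept peaks, with coverage of 48.5% and 85.8%. Among windows with no kept peak, those at 77000001 to 78000000 and 81000001 to 82000000 of chromosome 2 held 27 lost peaks each. Their coverage went from 55.9% to 91.9% in the first and from 63.6% to 46.0% in the second. The window at 52000001 to 53000000 of chromosome 17 held 24 lost and 15 knockout-only peaks, with coverage of 33.6% and 55.0%. All 6 windows had a negative median compartment signal in both genotypes, from -1.06 to -0.68 in control and from -1.05 to -0.35 in the knockout.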

How the data were processed

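RNA-seq, ChIP-seq and Hi-C of control and SETDB1 knockout A549 cells were used, grouped by their labels; inputs were not used. Per the submitters' processing notes, the build is hg19 and the tools named, with no role or order, include STAR 2.6.1c, edgeR 3.30.0, Bowtie2 2.2.3, SAMtools 1.5, Picard and MACS2. Gene counts were whole numbers as deposited; how reads were assigned to genes, with or without strand, is not given in the sources used here. The deposited compartment signal is a signed score per 100 kb bin, whose method and scale are not given in the sources used here; nor is any pooling of libraries behind peaks and TADs. The knockout H3K4me3 libraries carry a mark label that lacks a digit and were grouped by their description. Per-sample columns without a sample numbered 0.

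Overlap meant at least 1 bp, compartments and edges used the peak centre, and an edge was near within 20 kb. Counts (18065062 to 48364919 per library) were tested with edgeR 4.0.16 (TMM, filterByExpr, quasi-likelihood) and bins with limma 3.58.1 in R 4.3.3, genotype the only term, with Benjamini-Hochberg adjustment at 0.05; CPM used TMM-scaled library sizes. Other steps used Python 3.11.15 with pandas 2.3.3 and scipy 1.17.1. The fits and overlap steps were tested on simulated data. No source says that libraries came from separate cultures, so p-values measure the spread between these libraries, which may be technical. No libraries agreed within sampling noise.

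Members, lists and naming rules were chosen with earlier results of these data known. Named peaks were the 3 widest lost; the 2 widest in each H3K9me3 class; the 5 widest at a lost edge; the 2 widest that were the only CTCF peak at a kept edge; the 1 Mb windows with most lost peaks, with and without kept ones; and the 3 bins with the largest called change each way. The named knockout H3K9me3 domains were picked from those with most lost peaks. Chromosome 8 was left out of naming. Gene lists were the CTCF and cohesin genes and cell type markers given in the text, with PDS5B, HDAC8, ESCO1 and ZNF143 in the former. The markers also included SFTPB, SFTPC and NKX2-1 (alveolar) and COL1A1 (connective tissue). Alternatives were other overlap, edge and compartment rules, other scalings (DESeq2 1.42.0 among them), a replicate block and leaving out each library.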

Additional observations from a re-analysis of the deposited data

How the results depend on the processing

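The order of lost against kept peaks held under every setting tried for control H3K9me3 and knockout H3K9me3 (7 settings each, the reported one included), for B in control, kept edges and lost edges (6 each). Alternatives gave 300 values. Of these, 259 were classed as unchanged, 35 moved out of the reported interval, 3 newly passed 0.05, 1 no longer did and 2 reversed. For shares and single genes, unchanged meant keeping to the reported interval or call. Counts of called bins and of listed genes had no interval, and all were classed as unchanged although many differed. An example is 10 lower listed genes with upper quartile scaling, beside 8 reported. For these counts the class is therefore no measure of stability. The causes of the moves were not tested, except where a wider or narrower rule sets them.

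A reciprocal overlap of at least 50% gave a lost share of 49.6%; lost and kept peaks then had control H3K9me3 in 24.6% and 3.85%, knockout H3K9me3 in 42.8% and 2.10%, B in 63.4% of lost, and a kept edge near 10.8% of lost peaks. Counting a knockout peak within 1 kb as kept gave a lost share of 42.9%, knockout H3K9me3 at 3.05% and B at 20.3% of kept peaks. The wider 50% of each list gave a lost share of 44.8%. This setting also dropped the narrower knockout peaks, so a control peak that overlapped only such a peak counted as lost. Against the full knockout list, 40.8% of control peaks in width quartile 3 and 28.8% in quartile 4 were lost. Without chromosomes 2, 5 and 8, a setting chosen after seeing the data, the lost share was 38.0%; control H3K9me3 was at 25.6% and 3.86%, knockout H3K9me3 at 43.4% and 2.08%, B at 66.3% of lost, and kept and lost edges near 9.38% and 0.415% of lost peaks. With 50% of the CTCF peak inside H3K9me3, control shares were 25.3% and 3.47%. With an H3K9me3 peak within 5 kb they were 54.3% and 26.2% in control and 55.8% and 7.99% in the knockout. Bins above the 10th percentile of absolute signal gave B shares of 70.1% and 16.0%. Edges within 40 kb gave 14.9% and 48.7% for kept and 1.24% and 1.87% for lost edges; edges in the same 20 kb bin gave 4.12% and 15.4%, and 0.332% and 0.518%.

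Whether replicate numbers pair the libraries is not given in the sources used here. The correlation of same-numbered deviations was -0.0018 in Hi-C. In RNA-seq it was 0.11, 0.064 and 0.047, and 2 of 3 control libraries correlated best with their own number, so pairing there is undecided. With the replicate block, 4359 bins with a lost peak were called, 1638 higher and 2721 lower, and 3 listed genes were higher and 8 lower. Leaving out each Hi-C library gave 3519 to 4165 called bins, and leaving out each RNA-seq library gave 2 to 3 higher and 8 lower genes; an arm of 1 library was assumed to vary like the other. STAG1, past no threshold, went from -0.019 to 0.011 by library size only and 0.019 with no filter. Upper quartile scaling called 10 listed genes lower (NIPBL and PDS5A added), and library size only called 4 higher (YY1 added). Sequence motifs in lost peaks and genes near them were not run, since no hg19 genome or annotation was used here.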
